A study of Mus musculus with 60 samples.

Results

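The nuclear lamina genes of disseminated breast cancer cells were examined as 8 transcripts, Lmnb1, Lmnb2, Lmna, Emd, Lemd3, Banf1, Sun1 and Sun2, chosen by name for their place at the inner nuclear membrane and matched by Ensembl identifier to symbol. They are 8 of 47729 mouse genes in the count table, and all 8 reached 1 CPM (counts scaled to a total of 1000000 mouse gene counts) in at least one group of cells. The cells were PyMT-Bo1, a C57BL6 mouse mammary tumor line that carries Luc2, eGFP, H2B-mApple and Thy1.1 transgenes, and both groups came from that line. They were stained with DiD, a membrane dye that is diluted at each division, and given by intracardiac injection to wild-type female C57BL6/J mice aged 8 to 10 weeks. After 11 days the femurs and tibias of 5 mice were pooled, and Thy1.1+ CD45- cells were sorted singly as DiD+ (dye high, the dormant cells, n = 32) or DiD- (dye low, the proliferative cells, n = 28). No mouse is named for any cell, so each group is 1 pooled sample of 1 cell line. The values below are therefore given without a test, and the ranges over cells describe these cells rather than animals.

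The lamina is a meshwork of A-type and B-type lamin filaments beneath the inner nuclear membrane. B-type lamins stay attached to that membrane by a farnesyl tail, whereas mature lamin A is cut free of its tail. LEM-domain proteins of the membrane bind the DNA-bridging protein BAF, and SUN proteins pass through the membrane to join nesprins, which couple the nucleus to the cytoskeleton. Loss of lamin B1 is widely used as a marker of senescent growth arrest, and lamin A content is known to vary with tissue stiffness.

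Each cell held between 2276789 and 7794219 mouse gene counts in DiD+ and between 2624405 and 6199108 in DiD-. Spike-in RNA took a median share of 1.88% of the counts of DiD+ cells and 1.51% of those of DiD- cells. The keratin gene Krt8 had at least 572 counts in every cell and Krt18 had at least 10 counts in 29 of 32 DiD+ and 28 of 28 DiD- cells, while Epcam had none and Cdh1 at most 1 count in any cell. At least 7 of 13 macrophage markers were present at 10 or more counts in 6 DiD+ wells (labelled 19, 21, 24, 30, 37 and 88) and in 1 DiD- well (84), in spite of the CD45- gate. Summed over the 13 markers, the median and highest levels were 8.81 and 20838 CPM for DiD+ cells, against 0.108 and 1776 CPM for DiD- cells. At least 4 of 7 erythroid markers were present in 3 of those 6 DiD+ wells and in 3 DiD- wells (44, 84 and 86). The members and most gene lists are given with and without these 9 wells. So are genes that meet the naming rule given at the end, where their direction or 2-fold call changed.

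Lmnb1, which encodes lamin B1, was lower in DiD+ cells and was without a single count in 15 of the 32. The gene lies on chromosome 18 at 56707813 to 56753424 on the plus strand of GRCm38 and has 2962 exon bases. Over the 32 DiD+ cells its level ran from 0 through a median of 0.621 to 193 CPM, and over the 28 DiD- cells from 0 through 53.6 to 214 CPM. The highest cells of both groups were alike, and the medians stood apart, with 15 of the DiD+ cells at 0. Lmnb1 was detected at 1 count or more in 53.1% of DiD+ cells (17 of 32, 95% exact binomial interval 34.7 to 70.9%) and in 92.9% of DiD- cells (26 of 28, 76.5 to 99.1%). Among cells with a count, the median was 49.5 CPM in DiD+ and 59.7 CPM in DiD-. Summed over cells, its level was 38.95 CPM (exact Poisson interval 37.94 to 39.97) for DiD+ and 66.1 CPM (64.6 to 67.5) for DiD-. The log2 ratio, with 1 CPM added to each side, was -0.75. These intervals and those that follow cover counting error only, since reads were not marked by molecule and many can come from 1 transcript.

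The DiD+ level of Lmnb1 rested on few cells. Cells 82, 25 and 67, at 148, 193 and 158 CPM, held 54.6% of all DiD+ counts of the gene, whereas the 3 fullest DiD- cells held 31.7% of theirs. The log2 ratio was -0.99 without cell 82 and -0.60 without DiD- cell 26. All 6 DiD+ wells with macrophage markers had 0 counts of Lmnb1, while the 1 such DiD- well had 102. Without the wells that held macrophage or erythroid markers, 17 of 26 DiD+ cells (65.4%) and 23 of 25 DiD- cells (92%) had a count, and the log2 ratio was -0.47. The share of DiD+ cells with Lmnb1 thus stayed below that of DiD- cells, and the ratio of summed levels lay nearer to 1.

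Cell numbers in the labels fell into 2 ranges, 17 to 46 and 63 to 92, and each held cells of both groups; the labels do not say what sets the ranges apart. In the first range Lmnb1 was present in 8 of 18 DiD+ and 12 of 12 DiD- cells, at 28.6 and 79.1 CPM, a log2 ratio of -1.44. In the second it was present in 9 of 14 DiD+ and 14 of 16 DiD- cells, at 53.6 and 55.3 CPM, a log2 ratio of -0.042. The lower summed level of Lmnb1 was therefore seen in the first range and not in the second, although the share of cells with a count was lower in DiD+ in both. The median over cells was also lower in DiD+ in both. It was 0 against 59.7 CPM in the first range and 20.7 against 50.6 CPM in the second. Cells 82 and 67, among the fullest DiD+ cells, belong to the second range. Of the 6 DiD+ wells with macrophage markers, 5 carried labels of the first range. The log2 ratios without the marker wells were -1.03 in the first range and 0.10 in the second.

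**Figure D1:**
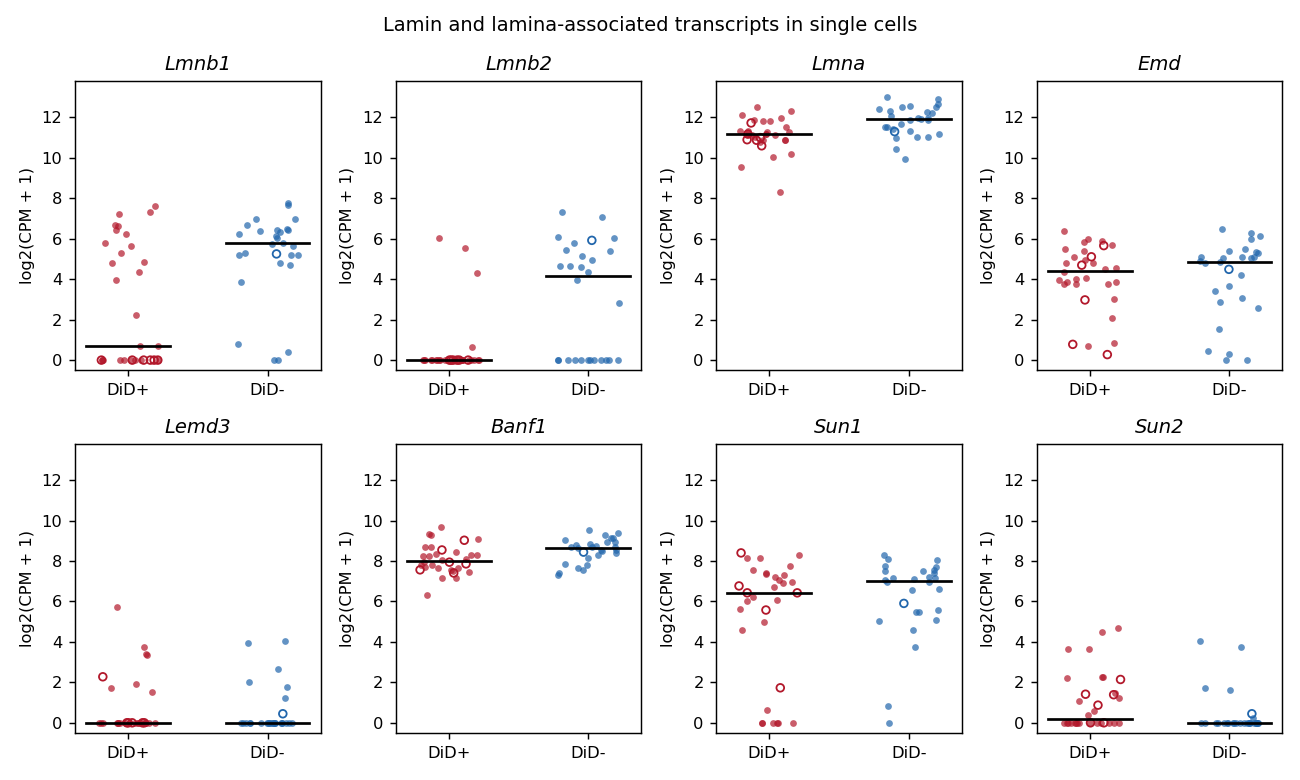
Level of each of the 8 transcripts in every cell, as log2(CPM + 1) on the y axis, for 32 DiD+ (red) and 28 DiD- (blue) cells; 1 point is 1 cell, horizontal bars are medians, and open circles are the 7 wells with macrophage markers. Lmnb1 was detected in 17 cells of DiD+ and 26 of DiD-, Lmnb2 in 4 and 16, and Lmna and Banf1 in every cell.

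Lmnb2, which encodes lamin B2, showed the lowest ratio of the 8 genes. It lies on chromosome 10 at 80901203 to 80918245 on the minus strand. Its level ran from 0 through a median of 0 to 64.4 CPM in DiD+ cells and from 0 through 17.2 to 161 CPM in DiD- cells. The transcript was detected in 12.5% of DiD+ cells (4 of 32, interval 3.51 to 28.99%) and in 57.1% of DiD- cells (16 of 28, 37.2 to 75.5%). The 4 DiD+ cells were 38, 22, 87 and 42, with 298, 275, 75 and 3 counts, and the first 3 held 99.5% of the total. The ranges of the groups overlapped, and the other 28 DiD+ cells were at 0. The summed level of Lmnb2 was 4.46 CPM (4.12 to 4.81) for DiD+ and 27.2 CPM (26.2 to 28.1) for DiD-, with a log2 ratio of -2.37. The ratio was -3.01 without cell 38, a move of over 1.5 times in the fold, and -2.12 without DiD- cell 79.

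Lmnb2 was lower in DiD+ cells in both ranges of labels, in 3 of 18 against 8 of 12 cells in the first (log2 ratio -1.52) and in 1 of 14 against 8 of 16 in the second (-3.89). It had 0 counts in the 6 DiD+ macrophage-marker wells and 164 counts in the DiD- one. With the marker wells left out it was detected in 4 of 26 DiD+ and 13 of 25 DiD- cells, and the log2 ratio was -2.09. The direction of Lmnb2 did not turn under any of these choices.

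The promoter of Lmnb2, the gene with the lowest ratio, is shown with those of Sun1 and Emd, members of lesser difference, as the 250 bases before the start of transcription on the gene's strand, from RefSeq with build GRCm38.p6. Windows were taken for 7 of the 8 genes, with 11 start sites in all, and those shown overlap no annotated exon. Lmnb1 was left out of the search by choice of windows, so its promoter was not examined. Capitals mark a CCAAT box (CCAAT or ATTGG), a GC box (GGGCGG or CCGCCC), a cell cycle homology region (TTTGAA or TTCAAA) or an E2F core (TTTCCCGC or GCGGGAAA), searched on both strands. Lmnb2 lies at chr10:80918246-80918495 on the minus strand, Sun1 at chr5:139200387-139200636 and Emd at chrX:74254437-74254686 on the plus strand.
Lmnb2: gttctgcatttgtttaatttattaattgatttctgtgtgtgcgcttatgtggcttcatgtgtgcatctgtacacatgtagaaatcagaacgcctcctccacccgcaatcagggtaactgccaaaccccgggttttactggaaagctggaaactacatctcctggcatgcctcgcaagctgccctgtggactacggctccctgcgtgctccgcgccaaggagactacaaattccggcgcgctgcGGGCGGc
Sun1: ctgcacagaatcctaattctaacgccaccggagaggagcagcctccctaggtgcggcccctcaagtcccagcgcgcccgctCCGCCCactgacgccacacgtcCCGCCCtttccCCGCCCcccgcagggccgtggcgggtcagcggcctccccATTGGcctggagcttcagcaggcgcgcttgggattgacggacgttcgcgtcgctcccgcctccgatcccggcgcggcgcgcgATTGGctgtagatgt
Emd: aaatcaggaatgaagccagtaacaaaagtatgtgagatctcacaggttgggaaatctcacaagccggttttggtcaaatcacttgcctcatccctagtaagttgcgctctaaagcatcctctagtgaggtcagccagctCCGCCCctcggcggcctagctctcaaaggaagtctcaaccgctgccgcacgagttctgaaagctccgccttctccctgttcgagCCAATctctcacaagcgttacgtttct
The Lmnb2 window held 1 GC box, next to the start site, and no CCAAT box. The Sun1 window held 3 GC boxes and 2 CCAAT boxes, and the Emd window 1 of each. Of all 32851 windows of this length in the table, 33.8% held a CCAAT box, 32.7% a GC box, 16% a cell cycle homology region and 0.895% an E2F core. Among the 11 windows of the members other than Lmnb1, these numbers were 7, 8, 1 and 1, the last in a Banf1 window. A match is a run of letters and not a shown binding site.

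The B-type lamins were then read jointly to ask how many cells lacked both. Cells with no count of either transcript made up 43.8% of DiD+ cells (14 of 32, interval 26.4 to 62.3%) and 3.57% of DiD- cells (1 of 28, 0.0904 to 18.4%). Both were detected in 9.38% of DiD+ cells (3 of 32, 1.98 to 25.02%) and in 53.6% of DiD- cells (15 of 28, 33.9 to 72.5%). Lmnb2 without Lmnb1 was seen in 1 cell of each group. Cells without a B-type lamin count were thus mainly DiD+, and 6 of those 14 were wells with macrophage markers. When the marker wells were left out, 8 of 26 DiD+ (30.8%) and 1 of 25 DiD- cells (4%) had neither. With every cell thinned to 2200000 counts, which left out no cell, 14 of 32 and 2 of 28 cells had neither.

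**Figure D2:**
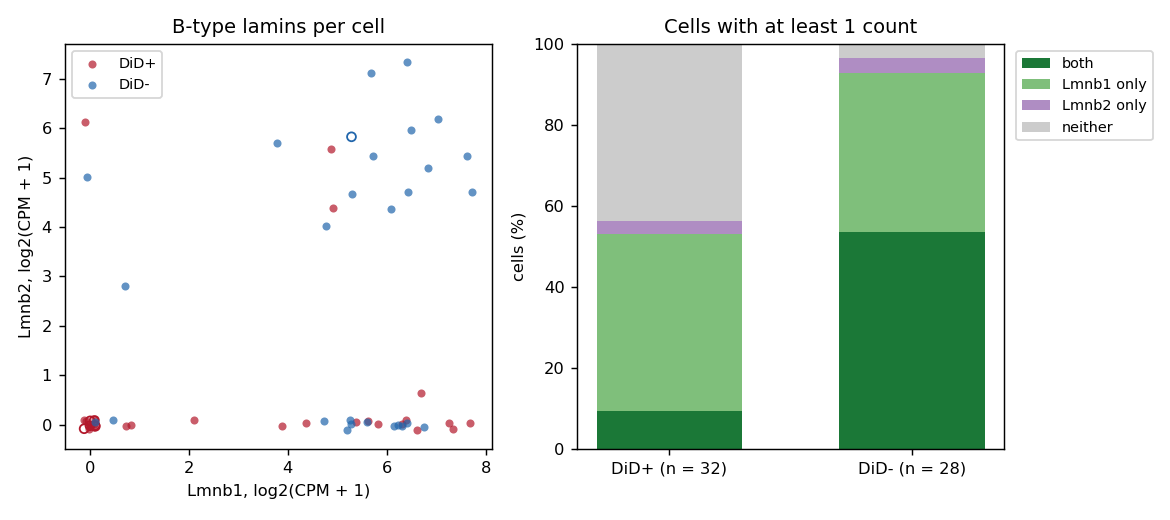
Left, Lmnb2 against Lmnb1 in each cell as log2(CPM + 1), with points moved slightly at random so that cells at 0 can be seen, and open circles for wells with macrophage markers. Right, percent of the 32 DiD+ and 28 DiD- cells with both B-type lamins, 1 of them or neither at 1 count or more; neither was found in 43.8% of DiD+ and 3.57% of DiD- cells.

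Lmna, which encodes lamins A and C, was the most abundant of the 8 transcripts and was present in every cell. The gene lies on chromosome 3 at 88480147 to 88509956 on the minus strand. Its level ran from 320 through a median of 2298 to 5888 CPM in DiD+ cells and from 975 through 3857 to 8301 CPM in DiD- cells. The medians stood apart and the ranges overlapped over most of their length. Its summed levels, 2566 CPM (2558 to 2574) for DiD+ and 3964 CPM (3953 to 3976) for DiD-, gave a log2 ratio of -0.63. The ratio stayed between -0.68 and -0.57 when each cell was left out in turn, and was -0.72 and -0.58 in the first and second range of labels and -0.56 without the marker wells. No 1 cell and neither range of labels carried the lower level of Lmna.

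Because A-type and B-type lamins were both lower, their proportion was computed per cell as the log2 ratio of Lmna to the sum of Lmnb1 and Lmnb2, each as CPM per kb of exon length. In DiD+ cells it ran from 2.62 through a median of 7.68 to 11.10, and in DiD- cells from 2.33 through 4.88 to 10.32. DiD+ cells spread over the whole range, with quartiles at 4.43 and 10.19, while the quartiles of DiD- cells were 4.05 and 5.66. The high values are those of cells with no B-type count, so that they depend on the added 1 CPM: with 0.1 CPM the medians were 8.77 and 4.91. They were 6.07 and 5.05 when the marker wells were left out. In the summed counts of all cells, which do not rest on cells at 0, Lmna was 30.98 times the B-type lamins per kb in DiD+ and 23.7 times in DiD-. This summed proportion was not computed by label range or without the marker wells. In the second range the log2 ratio of Lmna, -0.58, was lower than that of Lmnb1, -0.042, and higher than that of Lmnb2, -3.89. There Lmna, Lmnb1 and Lmnb2 were at 2400.8, 53.65 and 1.244 CPM over DiD+ cells. Over DiD- cells of that range they were at 3599.1, 55.26 and 32.18 CPM. A higher proportion in DiD+ is therefore not shown for each range.

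Banf1, which encodes the BAF protein that cross-bridges DNA and binds LEM domains, was present in every cell and was somewhat lower in DiD+. Its level ran from 77.7 through a median of 256 to 824 CPM in DiD+ cells and from 158 through 401 to 747 CPM in DiD- cells. The summed levels, 309.5 CPM (307 to 312) and 400.3 CPM (397 to 404), gave a log2 ratio of -0.37, with -0.45 and -0.34 in the 2 ranges of labels. The gene, on chromosome 19 at 5364638 to 5367168 on the minus strand, overlaps the gene Eif1ad on the other strand, and the library kit does not keep the strand, so reads in the overlap could belong to either.

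Emd, which encodes emerin, a LEM-domain protein of the inner membrane, differed little between the groups. The gene lies on chromosome X at 74254687 to 74261548 on the plus strand. Its level ran from 0.208 through a median of 20.5 to 82.2 CPM in DiD+ cells and from 0 through 28.2 to 87.5 CPM in DiD- cells. The summed levels, 26.5 CPM (25.7 to 27.4) and 28.7 CPM (27.8 to 29.7), gave a log2 ratio of -0.11. The deposited count of Emd was fractional in 47 of 60 cells, which RSEM gives where it divides reads between loci, and was rounded. A transcribed pseudogene, Gm14686, overlaps the gene, so the level of Emd is uncertain. The ranges of the groups coincided almost entirely.

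Lemd3, which encodes MAN1, a LEM-domain protein that binds receptor-activated SMADs, was scarce in both groups. The gene lies on chromosome 10 at 120923413 to 120979332 on the minus strand. It was detected in 25% of the cells of each group (8 of 32 and 7 of 28), the median was 0 in both, and the highest levels were 51.6 and 15.5 CPM. The summed levels, 2.69 CPM (2.43 to 2.97) and 1.53 CPM (1.32 to 1.77), gave a log2 ratio of 0.54 that became -0.030 without cell 63, which held 46.3% of the DiD+ counts, and 0.91 without DiD- cell 86. It was 1.26 and 0.38 in the first and second range of labels. Without the marker wells it was 1.16, past 2-fold, with 7 of 26 DiD+ and 4 of 25 DiD- cells detected. No direction can be given for Lemd3 at this number of cells.

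The 2 SUN genes, Sun1 on chromosome 5 at 139200637 to 139249840 (plus strand) and Sun2 on chromosome 15 at 79724070 to 79742536 (minus strand), lay on opposite sides of 0. Sun1, which encodes a SUN-domain protein that anchors nesprins and nuclear pores, ran from 0 through a median of 85.05 to 337 CPM in DiD+ cells and from 0 through 128 to 312 CPM in DiD- cells. It was detected in 26 of 32 (81.2%) and 27 of 28 cells (96.4%), and its summed levels, 103 CPM (101 to 105) and 129 CPM (127 to 131), gave a log2 ratio of -0.32. Sun2, its paralog, was detected in 50% of DiD+ cells (16 of 32, 31.9 to 68.1%) and 21.4% of DiD- cells (6 of 28, 8.30 to 40.95%), with medians of 0.143 and 0 CPM and highest values of 24.4 and 15.4 CPM. Sun2 was thus seen in more DiD+ cells, at low levels: with at least 10 counts the cells were 8 and 3. Its summed levels, 2.57 CPM (2.31 to 2.84) and 1.17 CPM (0.986 to 1.38), gave a log2 ratio of 0.72. The ratio passed 2-fold without the marker wells (1.16, with 12 of 26 DiD+ and 4 of 25 DiD- cells detected), without DiD- cell 20 (1.09) or 86 (1.06), and with 0.1 CPM added (1.07). It was -0.335 in the first range of labels and 1.57 in the second, so that the direction of Sun2 turned with the range.

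**Figure D3:**
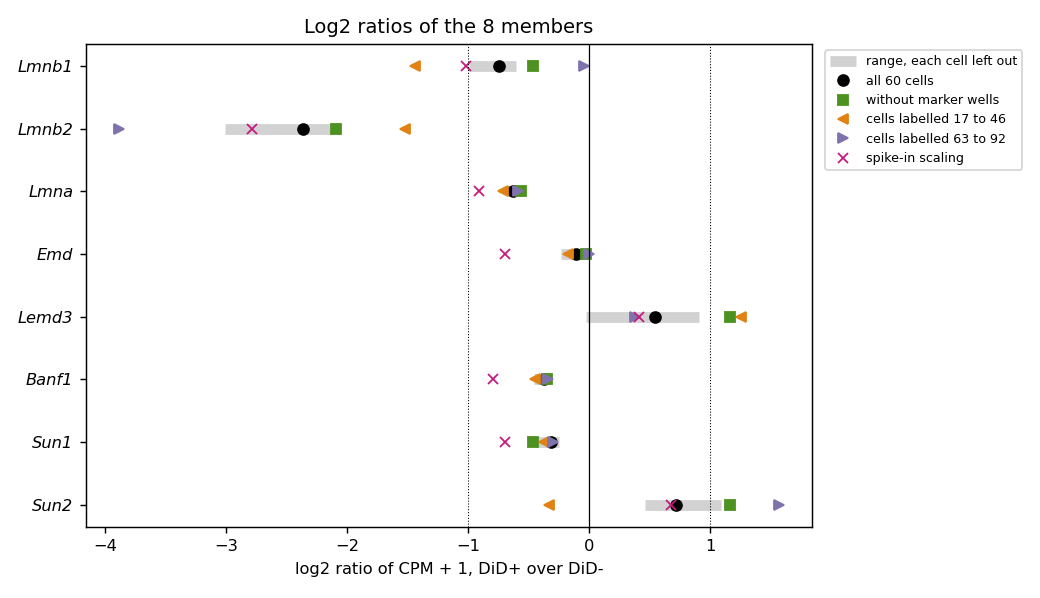
Log2 ratio of DiD+ to DiD- for the 8 transcripts on the x axis, from summed CPM + 1 over all 60 cells (black), without the 9 wells that held macrophage or erythroid markers (green), in each range of cell labels (triangles) and scaled to spike-in RNA (cross); grey bars give the range when each cell is left out in turn and dotted lines mark 2-fold. Lmnb1 lies at -1.44 in the first range of labels and -0.042 in the second, and Lmna between -0.72 and -0.56 except for the spike-in value of -0.91.

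Of the 8 genes, 6 were lower in DiD+ cells and 1, Lmnb2, was at least 2-fold lower. Over the 12432 genes that reached 1 CPM in a group, 46.8% had a log2 ratio under 0, 4.86% were at least 2-fold lower and 12.1% at least 2-fold higher. None of the 8 was at least 2-fold higher over all cells, whereas Lemd3 and Sun2, both at 1.16, were so without the marker wells. The other log2 ratios without those wells were -0.03 for Emd, -0.35 for Banf1 and -0.46 for Sun1, beside those given above for the lamins. The median log2 ratio was -0.34 over the 8 and 0.04 over all these genes. In the share of cells with a count, Lmnb1 was lower in DiD+ by 39.7 and Lmnb2 by 44.6 percentage points. A share lower by at least 25 points, a limit set after these values were seen, was found for 2.78% of the 12432 genes. Scaled to the spike-in RNA instead of to the total, the median of all genes moved to -0.34, and 6 of the 8 were again lower. The share of all genes that were lower on that scale is not given. On that scale Lmnb1, at -1.02, also passed 2-fold, and its log2 ratio less the median of all genes was -0.68, against -0.79 with scaling to the total.

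Per kb of exon length the order of the summed levels was nearly the same in both groups. In DiD- cells it was Lmna at 679 CPM per kb, Banf1 at 268, Lmnb1 at 22.3, Sun1 at 16.96, Emd at 11.4, Lmnb2 at 6.34, Lemd3 at 0.319 and Sun2 at 0.216. In DiD+ cells Sun1, at 13.6 CPM per kb, came before Lmnb1, at 13.2, and the rest kept their places, with Lmna at 440, Banf1 at 207, Emd at 10.54, Lmnb2 at 1.04, Lemd3 at 0.559 and Sun2 at 0.474. The quartile ranges over cells did not overlap between Lmna and Banf1 or between Banf1 and the next gene in either group. Below Banf1, each gene overlapped the next in the order in DiD- cells, and in DiD+ cells all but Emd and Lmnb2 did. In DiD+ cells the quartile range of Lmnb1, from 0 to 17.1 CPM per kb, reached down to those of the 3 lowest genes, so the order below Banf1 is not fixed by these cells.

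Lmnb1 followed the genes of the cell cycle from cell to cell. With the summed CPM of 48 G2/M genes (lamina genes left out), its Spearman rho was 0.63 over the 32 DiD+ cells and 0.40 over the 28 DiD- cells, and Pearson's r of the log2 values was 0.66 and 0.53. With 43 S phase genes, rho was 0.57 and 0.45. Lmnb1 was therefore higher in cells with more cell cycle transcripts inside each group. The G2/M sum itself ran from 409 through a median of 1557 to 30366 CPM in DiD+ cells and from 717 through 6412 to 23363 CPM in DiD- cells. Leaving out the marker wells gave a rho with G2/M of 0.70 and 0.42. All of these points share the library, its total and its number of genes with a count, and rho of Lmnb1 with that number was 0.45 and 0.32, and with the spike-in share -0.50 and -0.13. Their part in the relation was not tested.

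The other lamins followed the cycle less evenly. Lmnb2 had rho of 0.21 in DiD+ and 0.26 in DiD- with the G2/M sum and -0.05 and 0.40 with the S phase sum, over 4 and 16 cells with a count. Lmna had rho of 0.54 in DiD+ and -0.06 in DiD- with the G2/M sum. Banf1 was alike, at 0.59 and 0.05, so that for these 2 genes a relation was seen in DiD+ cells and not in DiD- cells; the difference was not tested. Between members, the highest rho were 0.44 for Lmnb1 with Banf1, 0.42 for Lmna with Banf1 and 0.41 for Lmnb1 with Lmna, all in DiD+ cells. Lmnb1 and Lmnb2 had rho of 0.12 and 0.29 in the 2 groups.

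**Figure D4:**
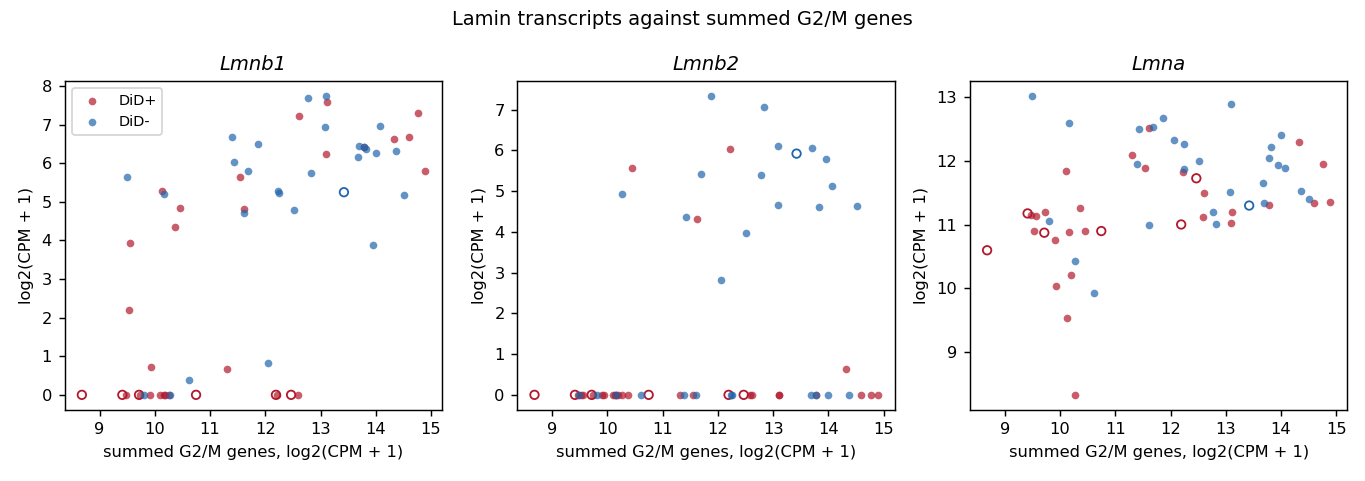
Level of Lmnb1, Lmnb2 and Lmna on the y axes against the summed CPM of 48 G2/M genes on the x axes, all as log2(CPM + 1), for 32 DiD+ (red) and 28 DiD- (blue) cells, with open circles for wells with macrophage markers. Spearman rho of Lmnb1 was 0.63 in DiD+ and 0.40 in DiD- cells.

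The genes with the pattern over all 60 cells most like that of Lmnb1, among 8380 genes that reached 10 CPM in a group and were detected in 20 or more cells, were Cdk1, Asf1b, Mxd3, Tk1 and Cenph, with Spearman rho of 0.76, 0.75, 0.74, 0.74 and 0.74. Within DiD+ cells alone the values of these 5 lay between 0.65 and 0.87, and within DiD- cells between 0.49 and 0.61. Those most like Lmnb2 included Ercc6l, Nsmce4a and D2hgdh, at 0.55, 0.53 and 0.51, a weaker likeness over few cells with a count. Those most like Lmna were Ywhaz, Prl2c3, Hdgf, Angptl2 and Gm7964, at 0.65 to 0.61, of which Prl2c3 belongs to a family of near-identical copies.

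The other genes of the nuclear envelope were mostly a little lower in DiD+ cells. Of 14 other genes, a list of inner nuclear membrane genes together with torsins and their activators, 13 were lower, 1 of them at least 2-fold. Their median log2 ratio was -0.27. Lbr, the lamin B receptor, was detected in 29 of 32 and 27 of 28 cells, at 170 and 199.6 CPM (log2 ratio -0.23), and Tmpo, which encodes the LAP2 proteins, was at 179 and 248 CPM (-0.46). The log2 ratio of Lbr was nearer to 0 than that of Lmnb1, and the difference was not tested. Syne1 and Syne2, which encode nesprins, were at 4.44 and 5.09 CPM (-0.16) and at 45.6 and 48.8 CPM (-0.10). Of the 4 nesprin and other SUN genes at 1 CPM or more, 3 were lower and 1, Syne3, which fell outside the naming rule and was chosen after its values were seen, was at least 2-fold lower at 3.998 and 9.02 CPM (-1.004). Without the marker wells 1 of these 4 was lower, with Syne1 at 0.10, Syne2 at 0.20 and Syne3 at -0.56. Of the 14 inner membrane and torsin genes, 12 were then lower.

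Of 6 lamin processing enzymes, 4 were lower, and Icmt, which methylates the farnesylated cysteine of prelamins and other CAAX proteins, was at least 2-fold lower at 10.49 and 28.9 CPM (log2 ratio -1.38), with a count in 13 cells of each group. Of 12 genes for BAF kinases and envelope sealing, 6 were lower and 6 higher, and Spast, which encodes the microtubule-severing spastin, was at 18.3 and 8.34 CPM (1.05). Of 27 nuclear pore genes at 1 CPM or more, 23 were lower, with a median of -0.54 and 4 at least 2-fold lower: Nup35 (-1.14), Nup85 (-1.10), Nup205 (-1.17) and the membrane nucleoporin gene Ndc1 (-1.04). Among these other envelope lists the pore genes had the lowest median. In the remaining wells, with the marker wells left out, 23 of 27 were again lower, 3 at least 2-fold, and Ndc1 was at -0.75 and Spast at 0.95.

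**Figure D5:**
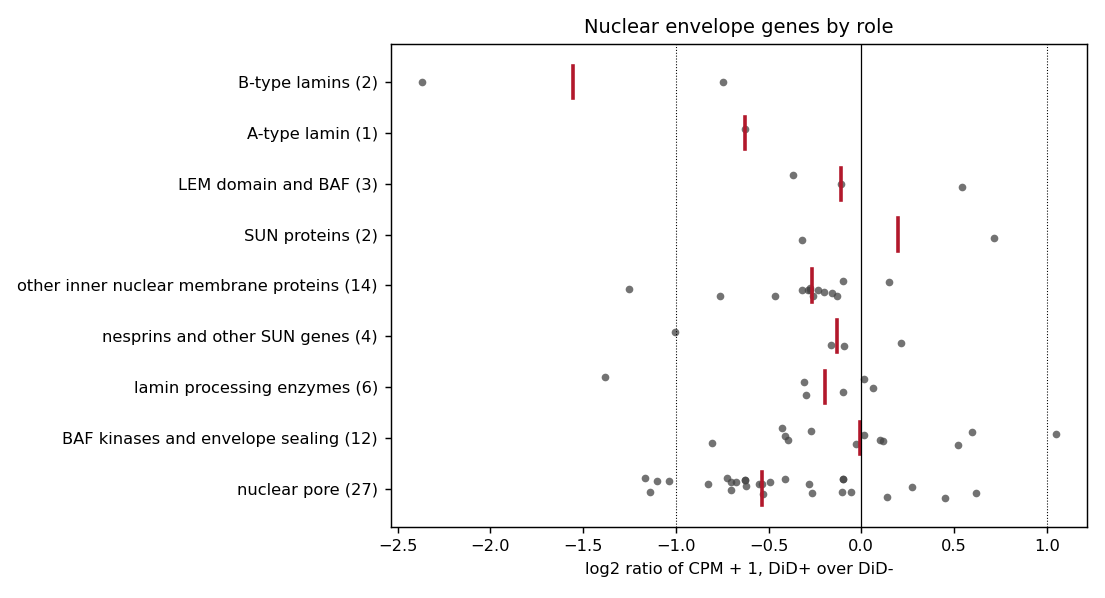
Log2 ratio of DiD+ to DiD- on the x axis for nuclear envelope genes that reached 1 CPM in a group, by role, with the number of genes in brackets; 1 point is 1 gene, red bars are medians and dotted lines mark 2-fold. The nuclear pore list lies mostly below 0, with a median of -0.54, and the envelope sealing list is centred at -0.01.

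Since low Lmnb1 is known as a mark of arrest, genes of cell cycle arrest are given beside it. Cdkn1a, which encodes p21, was detected in every cell, at 688 CPM over DiD+ and 364 CPM over DiD- cells (log2 ratio 0.92). Cdkn2a and Cdkn2b, which encode p16 and p15, had 0 counts in all 60 cells. By counting error alone this allows up to 0.0205 CPM in DiD+ and 0.0251 CPM in DiD-. Reads were not marked by molecule, so these values do not bound the transcripts in the cells, which may be present below detection. Rbl1, which encodes the pocket protein p107, was at 11 and 34.8 CPM (-1.58). Of 8 arrest genes at 1 CPM or more, 4 were lower and 4 higher, with a median of -0.04. With the marker wells left out 3 of 8 were lower, the median was 0.24, and Cdkn1a was at least 2-fold higher at 804 and 371 CPM (1.11). Of 42 S phase and 48 G2/M genes, 41 and 44 were lower, with medians of -0.68 and -0.49, beside -0.75 for Lmnb1.
In the S phase list, 7 were at least 2-fold lower, among them Mcm3 (-1.58), Uhrf1 (-1.34), Rrm1 (-1.11), Rfc2 (-1.10), Mcm6 (-1.09) and Exo1 (-1.04), and in the G2/M list 3, Top2a (-1.22), Bub1 (-1.20) and Aurkb (-1.14). Without the marker wells 5 and 0 of these lists were at least 2-fold lower, and the medians were -0.57 and -0.22. Rrm1 (-0.94), Rfc2 (-0.98), Mcm6 (-0.96) and Exo1 (-0.72) were then short of 2-fold. So were Top2a (-0.89), Bub1 (-0.74) and Aurkb (-0.74).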

How the data were processed

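Single cells were sorted into wells, and full-length cDNA made with a SMARTer kit and spike-in RNA was sequenced without molecular identifiers. Per the labels and the study's methods, the authors aligned reads with STAR to GRCm38 plus spike-in and transgene sequences and deposited RSEM expected counts per gene, 47825 entries for 60 cells. They also deposited BASiCS-normalised values, a signal on a count-like scale for 14013 entries, which were used as an alternative. The labels and the methods name different sequencers.

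Counts were rounded to whole numbers (96.6% were whole as deposited), pooled by group and scaled to the total over 47729 mouse genes (CPM). Symbols came from GENCODE vM21 for 47224 genes, and exon lengths are the union of its exons. Ratios add 1 CPM. The members and gene lists were chosen with earlier results of these data known. Other genes were named if they reached 10 CPM in a group and a 2-fold difference, with Lbr, Tmpo, Syne1 and Syne2 in any case, and for Lmnb1, Lmnb2 and Lmna the 5 genes of highest Spearman rho over 60 cells; Cdkn1a, Cdkn2a and Cdkn2b were chosen after their values were seen. Some genes that meet this rule are not reported here. With 1 pooled sample a group no model was fitted across genes and no p-value is given. Intervals are exact Poisson or Clopper-Pearson at 95%, and a count of 0 is read as up to 3 counts over the group. Alternatives were scaling by edgeR 4.0.16 TMM, DESeq2 1.42.0 factors, spike-in RNA or cell means, another pseudocount, fewer wells, each label range and leaving out each cell. The ratio function was tested on simulated data. The analysis used Python 3.11.15 with scipy 1.17.1.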

Additional observations from a re-analysis of the deposited data

How the results depend on the processing

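Lmnb1, Lmnb2 and Lmna had a log2 ratio under 0 in all alternatives run over both label ranges together. With 10 CPM added, the ratios of Lmnb1 and Lmnb2 were -0.64 and -1.36, and with 0.1 CPM that of Lmnb2 was -2.58. For Lmnb1, Lmnb2 and Lmna in turn, the mean of each cell's CPM gave -0.90, -2.55 and -0.67, the authors' BASiCS values -0.94, -2.59 and -0.70, and spike-in scaling -1.02, -2.79 and -0.91. Without macrophage-marker wells they were -0.45, -2.06 and -0.58, and without macrophage or erythroid wells -0.47, -2.09 and -0.56. In cells labelled 17 to 46 they were -1.44, -1.52 and -0.72, and in those labelled 63 to 92 -0.042, -3.89 and -0.58. TMM and DESeq2 factors moved Lmna to -0.65 and -0.66. Leaving out each cell gave -0.99 to -0.60 for Lmnb1, -3.01 to -2.12 for Lmnb2, -0.68 to -0.57 for Lmna and -0.030 to 0.91 for Lemd3. Members lower in DiD+ stayed at 6 to 7 where label range and marker wells were not changed together. Members at least 2-fold lower numbered 2 rather than 1 under spike-in scaling and in cells labelled 17 to 46. The median log2 ratio of all genes was -0.34 and 0.04 in these settings. Shares of all genes are given only for all cells scaled to the total, so counts of members under other settings have no background beside them. Sun2 turned to -0.335 in the first label range, and the rho of Lmna with G2/M in DiD- to 0.0005 with BASiCS values. Label ranges without marker wells were added after the data were seen. There Emd turned to 0.027 in the first range and Lmnb1 to 0.10 in the second, where Lemd3 (0.90) and Sun2 (2.49) were also above 0. Members at least 2-fold higher, 0 over all cells, were 2 without macrophage or erythroid wells (Lemd3 and Sun2, both at 1.16). The causes were not tested. No paired analysis was possible because no cell number is shared between the groups. With 1 pool of 5 mice, variation between animals cannot be seen, and a transcript without a count may be present below detection.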

Other observations

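Some envelope genes outside the naming rule, chosen after their values were seen, are given here, and they do not stand for the rest. Tmem43, which encodes the inner membrane protein LUMA, was detected in every cell with 704 CPM over DiD+ cells and 809.5 CPM over DiD- cells (log2 ratio -0.20). The torsin gene Tor1a was at 105 and 126 CPM (-0.26), and the genes of the torsin activators LAP1 and LULL1, Tor1aip1 and Tor1aip2, were at 78.7 and 95.4 CPM (-0.27) and at 131 and 118 CPM (0.15). Nemp1, which encodes an inner membrane protein, was detected in 11 of 32 and 17 of 28 cells at 7.18 and 12.9 CPM (-0.76). Nemp2 was at 3.52 and 9.77 CPM (-1.25), in 6 and 8 cells. Among arrest genes, Rb1, which encodes the retinoblastoma protein, was at 30.2 and 18.97 CPM (0.64), and Cdkn2c, which encodes p18, at 44.9 and 35.5 CPM (0.33). Trp53 was detected in every cell at 291 and 331 CPM (-0.18).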
